A study of Mus musculus with 10 samples.

Results

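The constitutive proteasome subunits are the products of the genes whose symbols begin with Psma, Psmb, Psmc or Psmd, without the inducible subunits Psmb8, Psmb9 and Psmb10. That rule took 37 of the 18193 genes that had a probe set with a single symbol. Of these, 36 encode subunits or assembly factors of the particle, 16 of its core and 20 of its cap, and the remaining gene, Psmc3ip, encodes a cofactor of homologous recombination that shares only the start of the symbol and is described apart. Where a gene had several probe sets, the one with the highest average signal across the 10 arrays was used. The filter on low signal, above 4.43 on at least 5 arrays, left 34 subunit genes tested, 14 of the core and 20 of the cap. The core genes under it were Psma8, an alpha subunit known from testis, and Psmb11, a beta subunit known from the thymus.

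The series measured total RNA of B-cell lymphomas on 10 Affymetrix mouse arrays. The ADR group held 5 lymphomas treated in culture with Adriamycin (ADR, doxorubicin, a DNA-damaging drug) at 0.05 µg/ml for 5 days, and the untreated group held the same 5 lymphomas without the drug. The culture time of the untreated cells is not given here, so a difference in time in culture cannot be told apart from the drug. Cells of both groups were taken out of enlarged lymph nodes, had the genotype Emu-myc;Suv39h1-/-, carried a retroviral Bcl2, had been selected with puromycin and grew on irradiated NIH 3T3 fibroblasts. Emu-myc drives Myc in the B-cell lineage, Suv39h1 is a histone H3 methyltransferase of heterochromatin, and Bcl2 blocks apoptosis, so neither group has intact Suv39h1 or normal cell death. The design asked how such lymphomas respond to a drug that induces senescence when Suv39h1 is present. Values are log2 signals, a change is ADR minus untreated within a lymphoma, and every set of 5 values follows the order lymphoma_5783, lymphoma_7890, lymphoma_9250, lymphoma_1032 and lymphoma_4936.

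The proteasome degrades proteins that carry ubiquitin chains. Its barrel-shaped core has outer rings of alpha subunits, which gate the entry, and inner rings of beta subunits, of which Psmb5, Psmb6 and Psmb7 cut the peptide chain. The cap holds a ring of Psmc ATPases that unfold the substrate, and Psmd subunits that bind ubiquitin or cut it off. Inhibitors of the core are used against some B-lineage cancers, and in immune cells the immunoproteasome subunits can take the place of the catalytic ones.

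Markers of the labelled cell type were read on the arrays. Of 10 B-cell markers 9 had a probe set, and 8 of these were above the filter level on every array. Their mean level was 7.01 to 9.39 on ADR arrays and 7.62 to 9.59 on untreated arrays, lowest in lymphoma_1032 in both groups. In that lymphoma Ms4a1 was at 4.79 on the ADR array and 5.09 on the untreated array. Of the macrophage markers, Lyz2 was at 14.36 and C1qa at 2.93 on its ADR array. Passing the filter therefore does not show that a culture held B cells alone. The ADR array of lymphoma_1032 stands apart with a median signal of 4.15, against 4.43 to 4.50 for the other 9. Centring every array on its median therefore shifts every change of that lymphoma. How far the low median reaches genes of higher signal was not tested. In RNA of bulk cultures, fewer cells of a type and less RNA per cell cannot be told apart. The labels do not say that each lymphoma came from its own animal, so p-values measure only the spread between these 5 lymphomas.

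The proteasome subunits had changes close to 0 on average after 5 days of ADR, and no subunit passed the test. With limma's paired fit and Benjamini-Hochberg adjustment over 11472 genes, 0 of 34 subunits had an adjusted p under 0.05, against 0% of all genes tested. At an unadjusted p under 0.05 the count was also 0 of 34 subunits, against 8.48% of all genes. The smallest adjusted p of a subunit was that of Psmd5, a chaperone of cap assembly (limma adjusted p = 0.602). The mean change was above 0 for 20 of 34 subunits, 7 of 14 in the core and 13 of 20 in the cap, against 44.8% of all genes. The median change was 0.01 in the core and 0.02 in the cap, against -0.02 over all genes tested. Averaged over the subunits of each lymphoma first, the change was 0.03 ± 0.16 in the core and 0.03 ± 0.17 in the cap (SD, n = 5 lymphomas), so its spread between lymphomas was larger than its size. The count of cap subunits with a mean change below 0 was 7 with all lymphomas, 13 without lymphoma_1032, 4 without lymphoma_7890 and 4 without lymphoma_9250. The core count was 7 with all lymphomas and 4 without lymphoma_9250.

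The intervals give the sizes that these arrays leave possible under the deposited scaling. The 95% intervals of the mean change ran between -0.40 and 0.48 over the core subunits and between -0.44 and 0.52 over the cap subunits. All 34 lay within 1.5-fold in either direction, 0.58 on the log2 scale. This held for 64.2% of all genes tested and for 78.8% of the 4215 genes whose mean signal lay in the subunits' own range of 7.80 to 11.53. The median SD of the change between lymphomas was 0.17 in the core and 0.22 in the cap, against 0.33 over all genes and 0.25 over the genes in that signal range. With every array centred on its own median, the mean change was 0.31 for Psmd6 and 0.30 for Psmd5, in place of 0.23 and 0.22. Intervals under that scaling are not given, so the 1.5-fold bound covers the deposited scaling only.

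**Figure D1:**
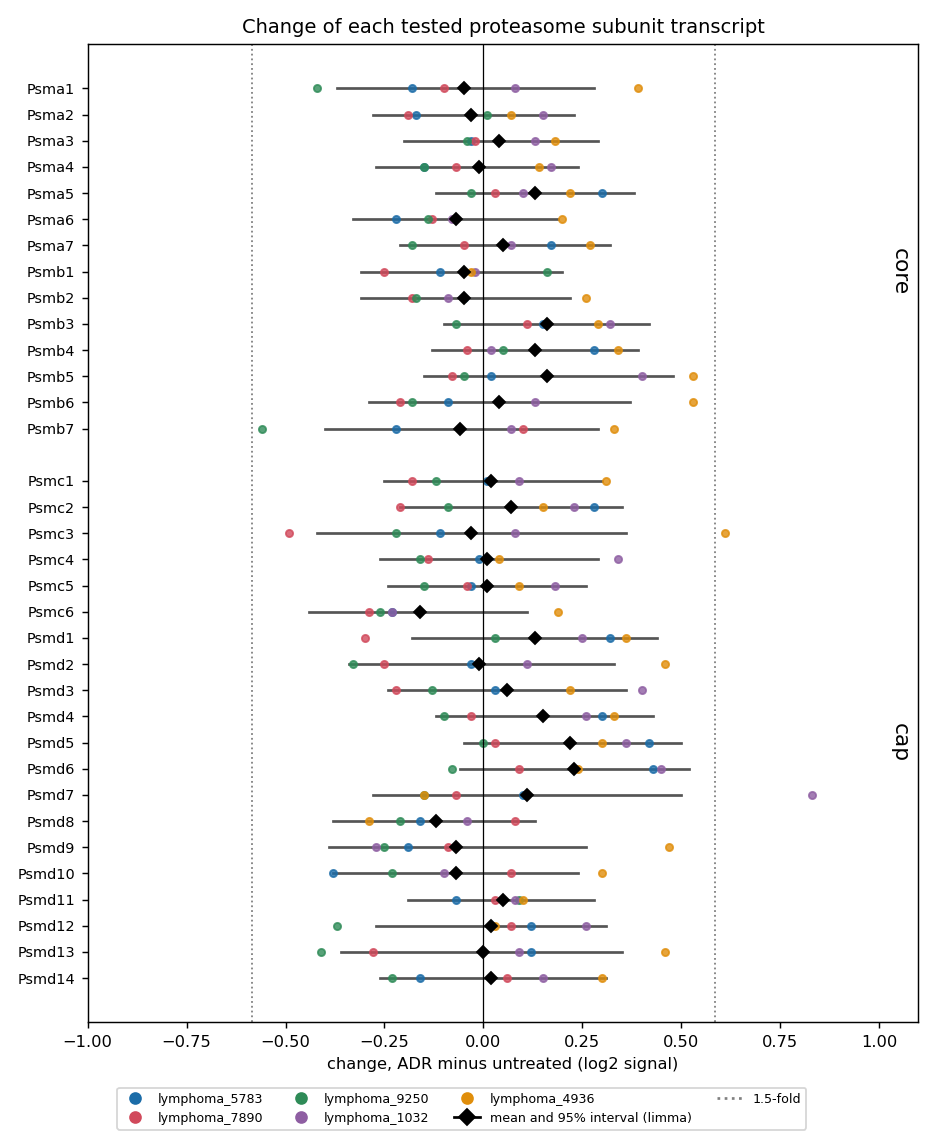
Log2 change, ADR minus untreated, of the 34 tested subunits, core above and cap below, with a point per lymphoma, the mean as a diamond and limma's 95% interval as a line. The dotted lines mark 1.5-fold in either direction, and all 34 intervals lie between them under the deposited scaling.

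The catalytic subunits of the core overlapped between the groups and did not pass the test. Psmb5, which cuts after hydrophobic residues and is the main target of proteasome inhibitors, had signals of 10.06, 10.41, 10.24, 10.66 and 10.45 on the ADR arrays and 10.04, 10.49, 10.29, 10.26 and 9.92 on the untreated arrays. Lymphoma_1032 and lymphoma_4936 had the higher ADR signals and lay above their own untreated cells, the other pairs lay close together, and the groups overlapped. Psmb5 had the highest mean change of the beta subunits, 0.16 (SE 0.13, 95% interval -0.15 to 0.48, limma adjusted p = 0.716). Psmb6, which cuts after acidic residues, had signals of 10.06, 10.39, 10.03, 10.52 and 10.34 on the ADR arrays and 10.16, 10.60, 10.21, 10.39 and 9.80 on the untreated arrays. ADR cells were below untreated cells in the first 3 lymphomas listed and above them in the others, and the groups overlapped. The mean change of Psmb6 was 0.04 (SE 0.14, 95% interval -0.29 to 0.37, limma adjusted p = 0.952). Psmb7, which cuts after basic residues, had signals of 10.40, 10.75, 10.13, 10.76 and 10.77 on the ADR arrays and 10.62, 10.66, 10.69, 10.69 and 10.44 on the untreated arrays. The ADR arrays spread wider, with lymphoma_9250 lowest, and the untreated arrays lay close together apart from lymphoma_4936. The change of Psmb7 averaged -0.06 (SE 0.15, 95% interval -0.40 to 0.29, limma adjusted p = 0.927).

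The promoters of Psmb5 and Psmb6 are shown for a motif that a regulator of proteasome genes can bind. Nfe2l1 and Nfe2l2 are factors known to raise proteasome genes through antioxidant response elements, and TGACNNNGC is the core of that element. The promoters below are RefSeq entries of GRCm38.p6, 250 bases before to 50 after the start, with capitals marking that core.
Psmb5, chr14:54617946-54618245, minus strand: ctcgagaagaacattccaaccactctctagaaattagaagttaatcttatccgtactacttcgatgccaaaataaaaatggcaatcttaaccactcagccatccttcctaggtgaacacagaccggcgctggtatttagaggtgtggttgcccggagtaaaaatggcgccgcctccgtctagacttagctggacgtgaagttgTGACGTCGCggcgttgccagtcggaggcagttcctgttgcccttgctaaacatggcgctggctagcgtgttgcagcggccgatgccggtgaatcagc
Psmb6, chr11:70525107-70525406, plus strand: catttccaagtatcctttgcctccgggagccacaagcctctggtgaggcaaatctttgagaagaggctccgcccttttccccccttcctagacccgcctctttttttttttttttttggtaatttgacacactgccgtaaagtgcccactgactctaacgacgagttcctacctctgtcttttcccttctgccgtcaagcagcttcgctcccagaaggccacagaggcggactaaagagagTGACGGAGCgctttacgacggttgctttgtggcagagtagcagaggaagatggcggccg
The core's first base lay at -47 of the start of Psmb5 and at -9 of that of Psmb6. Searched on either strand, TGACNNNGC was in 2 of 13 core promoters (15.4%) and 3 of 18 cap promoters (16.7%), against 12.4% of all 32851 promoters and 14.3% of those of genes tested, shares that lie close together. RefSeq promoters were matched for 29 of 36 subunit genes, 31 entries in all; Psma8, Psmb1, Psmb2, Psmb7, Psmc3, Psmd3 and Psmd7 had no entry. A match is a description of the letters and shows no binding.

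The other beta subunits gave the same picture of small changes. Psmb3 had a mean change of 0.16 ± 0.16 and Psmb4 one of 0.13 ± 0.17, and Psmb2 one of -0.05 ± 0.18 (SD, n = 5 lymphomas each). Psmb1 had an untreated SD of 0.08, the lowest of the core. Psmb11 was listed under the filter, at 3.36, 3.23, 2.76, 3.17 and 3.31 on the ADR arrays and 3.77, 3.27, 3.43, 3.22 and 3.46 on the untreated arrays. These signals lie below the median of the whole table on all arrays, so its difference was not tested.

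In the alpha rings, 3 of 7 subunits had a mean change above 0 and 4 below. Psma5 had the highest mean change of the alpha subunits, with signals of 11.03, 11.04, 11.08, 11.32 and 11.48 on the ADR arrays and 10.73, 11.00, 11.11, 11.22 and 11.26 on the untreated arrays. The ADR signal was higher in 4 lymphomas and lower in lymphoma_9250 by a small margin, and the groups overlapped. Its change was 0.13 (SE 0.11, 95% interval -0.12 to 0.38, limma adjusted p = 0.729). At the other end, Psma6 had signals of 11.35, 11.38, 11.35, 11.79 and 11.30 on the ADR arrays and 11.58, 11.51, 11.49, 11.86 and 11.10 on the untreated arrays. Its ADR signal was below the untreated one in 4 lymphomas and above it in lymphoma_4936, which had the lowest untreated signal. The mean change of Psma6 was -0.07 (SE 0.11, 95% interval -0.33 to 0.19, limma adjusted p = 0.852). The other alpha subunits had mean changes from -0.05 ± 0.30 (Psma1) to 0.05 ± 0.17 (Psma7) (SD, n = 5 lymphomas). Psma8 lay under the filter, at 2.62 to 3.11 on the ADR arrays and 2.44 to 3.26 on the untreated arrays.

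**Figure D2:**
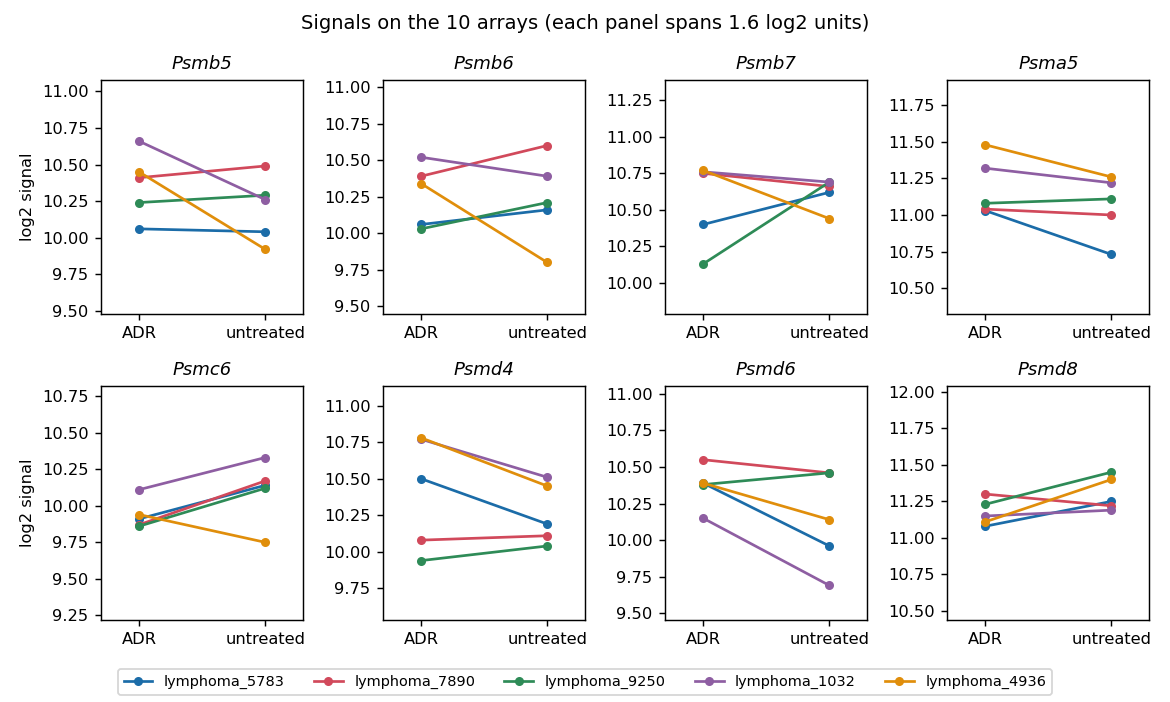
Log2 signal of 8 subunits on each array, ADR left of untreated, with a line joining the arrays of a lymphoma. Every panel spans the same height, and the groups overlap in each, as for Psmb5 (9.92 to 10.66) and Psmd6 (9.69 to 10.55).

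In the cap, the ATPases that thread the substrate into the core lay around 0. Of the 6, 4 had a mean change above 0 and 2 below, with a median of 0.01. Psmc2 had the highest mean change of the ATPases, with signals of 10.45, 10.50, 10.49, 10.50 and 10.75 on the ADR arrays and 10.17, 10.71, 10.59, 10.26 and 10.61 on the untreated arrays. ADR cells were higher in lymphoma_5783, lymphoma_1032 and lymphoma_4936 and lower in the other two, and their signals were closer together than those of untreated cells. The change of Psmc2 averaged 0.07 (SE 0.12, 95% interval -0.21 to 0.35, limma adjusted p = 0.869). Psmc6 had the lowest mean change of all 34 subunits, with signals of 9.91, 9.87, 9.86, 10.11 and 9.94 on the ADR arrays and 10.14, 10.17, 10.12, 10.33 and 9.75 on the untreated arrays. Its ADR signal was lower by nearly the same margin in 4 lymphomas and higher in lymphoma_4936. The mean change was -0.16 (SE 0.12, 95% interval -0.44 to 0.11, limma adjusted p = 0.682).

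Cap subunits that handle ubiquitin did not pass the test either. Psmd4, a receptor for ubiquitin chains in the base of the cap, had signals of 10.50, 10.08, 9.94, 10.77 and 10.78 on the ADR arrays and 10.19, 10.11, 10.04, 10.51 and 10.45 on the untreated arrays. ADR cells were higher in lymphoma_5783, lymphoma_1032 and lymphoma_4936 and close to untreated cells in the others, and the groups overlapped. The change of Psmd4 was 0.15 (SE 0.12, 95% interval -0.12 to 0.43, limma adjusted p = 0.701). Psmd14, the metalloprotease of the lid that removes the ubiquitin chain, had signals of 10.83, 11.25, 11.06, 11.17 and 11.09 on the ADR arrays and 11.00, 11.18, 11.29, 11.03 and 10.78 on the untreated arrays. The sign of its difference varied between lymphomas, and the groups overlapped. Psmd14 had a mean change of 0.02 (SE 0.12, 95% interval -0.26 to 0.31, limma adjusted p = 0.966).

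The promoters of Psmd4 and Psmd14 are shown for the CCAAT box, the site of the factor NF-Y, which is known to bind promoters of many cell cycle and housekeeping genes. Capitals mark CCAAT or, on the opposite strand, ATTGG.
Psmd4, chr3:95042565-95042864, minus strand: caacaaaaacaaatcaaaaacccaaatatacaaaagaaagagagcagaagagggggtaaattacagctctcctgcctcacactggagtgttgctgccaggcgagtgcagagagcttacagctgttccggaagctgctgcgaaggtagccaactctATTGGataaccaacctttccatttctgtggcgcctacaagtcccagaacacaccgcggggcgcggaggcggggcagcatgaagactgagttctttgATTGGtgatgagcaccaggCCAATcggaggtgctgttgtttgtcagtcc
Psmd14, chr2:61711444-61711743, plus strand: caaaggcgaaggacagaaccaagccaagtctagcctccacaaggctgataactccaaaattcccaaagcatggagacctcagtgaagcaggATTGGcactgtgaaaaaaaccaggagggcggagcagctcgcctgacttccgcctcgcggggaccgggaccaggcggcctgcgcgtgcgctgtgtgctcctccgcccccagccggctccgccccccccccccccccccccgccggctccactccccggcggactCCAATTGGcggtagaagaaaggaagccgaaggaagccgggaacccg
In Psmd14 the box at 5 and its reverse at 8 overlap, and a further one lies at -159. CCAAT was in 7 of 13 core promoters (53.8%) and 5 of 18 cap promoters (27.8%), against 37.4% of all promoters and 37.5% of those of genes tested. Over all 31 subunit promoters the share was 38.7%, close to that of all promoters.

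Among the lid subunits, which carry the deubiquitinase and its scaffold, 6 of 8 had a mean change above 0. Psmd6 had the highest mean change of all 34 subunits, with signals of 10.39, 10.55, 10.38, 10.15 and 10.39 on the ADR arrays and 9.96, 10.46, 10.46, 9.69 and 10.14 on the untreated arrays. The ADR signal was higher in 4 lymphomas and lower in lymphoma_9250, and lymphoma_1032 was lowest in both groups. The change of Psmd6 averaged 0.23 (SE 0.12, 95% interval -0.06 to 0.52, limma adjusted p = 0.612). Psmd8 had signals of 11.08, 11.30, 11.23, 11.15 and 11.11 on the ADR arrays and 11.25, 11.22, 11.45, 11.19 and 11.40 on the untreated arrays. It was lower with ADR in 4 lymphomas and higher in lymphoma_7890, and the groups overlapped. Its mean change, the lowest of the Psmd genes, was -0.12 (SE 0.11, 95% interval -0.38 to 0.13, limma adjusted p = 0.733). Psmd11, a lid scaffold subunit, had a mean change of 0.05 with an SD of 0.07, a narrow spread between lymphomas.

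Psmd5, Psmd9 and Psmd10 are chaperones that guide assembly of the cap base and leave the finished particle. Psmd5 was the only one of 34 subunits with 1 sign in all 5 lymphomas, against 9.49% of all genes tested. Its signals were 8.86, 8.75, 8.76, 9.18 and 8.42 on the ADR arrays and 8.44, 8.72, 8.76, 8.82 and 8.11 on the untreated arrays. The ADR signal was higher in lymphoma_5783, lymphoma_1032 and lymphoma_4936, nearly equal in the other pairs, and the groups overlapped. Psmd5 had a mean change of 0.22 (SE 0.12, 95% interval -0.05 to 0.50, limma adjusted p = 0.602). Psmd9 and Psmd10 each had a mean change of -0.07.

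In 4 of 5 lymphomas most subunits had a change of the same sign. In lymphoma_9250 only 6 of 34 subunits had a higher ADR signal (3 of 14 core, 3 of 20 cap), against 47% of all genes, and in lymphoma_7890 10 of 34 (3 core, 7 cap), against 48.4%. In lymphoma_4936 31 of 34 were higher (13 core, 18 cap), against 56.4% of all genes, and in lymphoma_1032 27 of 34 (11 core, 16 cap), against 34.4%. Lymphoma_5783 lay between them with 15 of 34 (5 core, 10 cap), against 53.7%. The lymphomas thus differed in sign while the core and the cap of 1 lymphoma lay close together. The core's mean change was -0.02, -0.08, -0.13, 0.10 and 0.27, and the cap's was 0.04, -0.11, -0.17, 0.18 and 0.23. The difference between them, core minus cap, stayed between -0.07 and 0.04. Outside the rule, 6 core assembly chaperones and inhibitors shared part of this pattern. Of these, 0 were higher in lymphoma_7890, 4 in lymphoma_9250, and all 6 in lymphoma_1032 and in lymphoma_4936. Genes of 1 array share its RNA and its scaling, so these counts describe 5 pairs of arrays and were not tested.

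**Figure D3:**
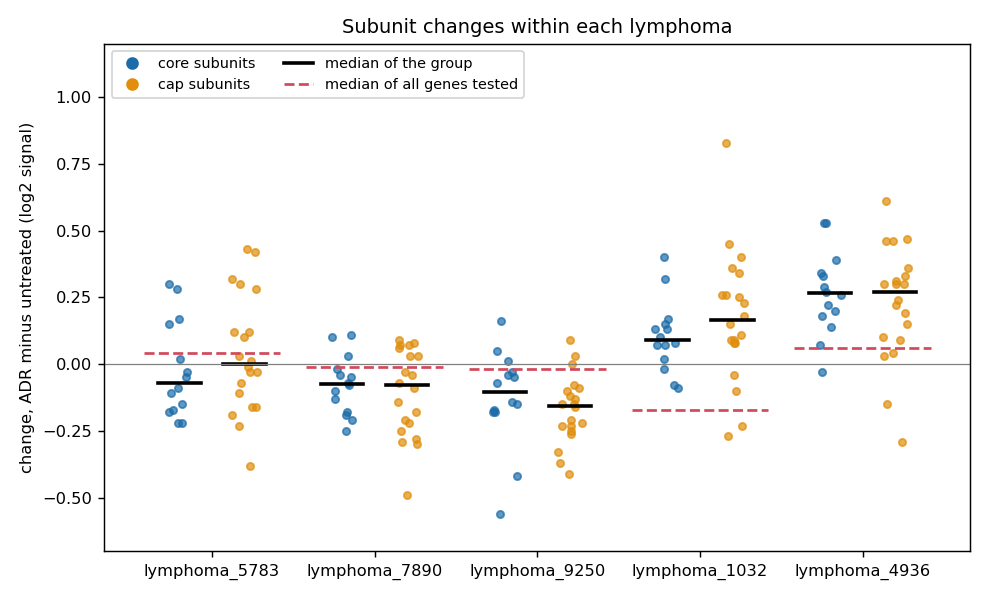
Log2 change, ADR minus untreated, of each core subunit and each cap subunit in each lymphoma, with the group's median as a bar and the median of all genes tested as a dashed line. The medians of core and cap lie close together, with most subunits below 0 in lymphoma_9250 and most above 0 in lymphoma_4936.

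The level of each array was also read. Such a deviation holds the lymphoma's own level and the array's scaling, so it does not show which array of a pair moved. Relative to each subunit's mean over the 10 arrays, the core averaged -0.13, 0.00, -0.11, 0.21 and 0.11 on the ADR arrays and -0.11, 0.07, 0.01, 0.10 and -0.15 on the untreated arrays. For the cap the averages were -0.08, 0.07, -0.05, 0.06 and 0.09 on the ADR arrays and -0.12, 0.18, 0.12, -0.12 and -0.14 on the untreated arrays. In lymphoma_4936 the ADR array was above and the untreated array below the mean, for core and cap alike.

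Lymphoma_1032 depends on the scaling. Between its arrays the median of the whole table differed by -0.29, and by -0.04 to -0.01 in the other lymphomas. With every array centred on its own median, 34 of 34 subunits were higher in lymphoma_1032 and 32 of 34 had a mean change above 0 (14 of 14 core, 18 of 20 cap), against 60.9% of all genes, in place of 20 of 34 and 44.8%. The median change of all genes was then 0.06, in place of -0.02. With quantile normalization 19 of 34 were above 0, against 50.7% of the 11392 genes tested under both scalings.

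Markers of the lymphoma cells and of other cell types differed within the same pairs of arrays. The 9 B-cell markers had mean changes of -0.20, 0.26, 0.51, -0.60 and -0.36. They were above 0 in lymphoma_7890 and lymphoma_9250, where most subunits were lower. They were below 0 in lymphoma_1032 and lymphoma_4936, where most subunits were higher, and also in lymphoma_5783, where 19 of 34 subunits were lower. The 17 macrophage markers with a probe set averaged changes of 0.28, -0.07, -0.13, 0.66 and 0.10, and 12 of 17 had a mean change above 0. Over all genes tested that share was 44.8%, to be read beside this and the following marker counts. Their mean level was 4.64 to 7.77 on ADR arrays and 4.54 to 7.84 on untreated arrays. The macrophage list was split: all 11 tested markers had a mean change above 0, while of the 6 under the filter (C1qa, C1qb, C1qc, Mrc1, Cd163 and Timd4) 5 were below 0. In lymphoma_5783 C1qa was at 3.91 on the ADR array and 6.82 on the untreated array, and Mrc1 at 4.70 on the ADR array and 7.64 on the untreated array, while Lyz2 was at 13.71 on the ADR array and 11.61 on the untreated array. The 16 fibroblast markers averaged changes of 0.43, -0.03, 0.03, 0.35 and 0.10, with 11 of 16 above 0 and levels of 5.36 to 7.23 on ADR arrays and 5.26 to 6.79 on untreated arrays. Of the 10 tested fibroblast markers 8 had a mean change above 0. Fn1 (mean change 0.66, limma adjusted p = 0.565), Lox and Acta2 were higher in 5 of 5 lymphomas. Col1a1 was lower in 5 of 5 (mean change -0.43, limma adjusted p = 0.565), at 4.39 to 5.08 on the ADR arrays, near the filter level of 4.43. The 10 neutrophil markers averaged changes of 0.28, 0.02, -0.11, 0.94 and 0.06, with 4 of 10 above 0 and levels of 4.12 to 6.77 on ADR arrays and 4.13 to 5.83 on untreated arrays. These means hide unlike markers. In lymphoma_1032 Lcn2 was at 13.58 on the ADR array and 12.76 on the untreated array. S100a8 was at 11.43 and 9.08 there, and Mpo at 3.05 and 3.42, in the same order. The 7 T-cell markers averaged changes of -0.02, -0.20, -0.02, -0.51 and -0.04, with 0 of 7 above 0 and levels of 4.15 to 5.01 on ADR arrays and 4.26 to 5.53 on untreated arrays. In lymphoma_1032 Cd5 was at 10.71 on the ADR array and 11.26 on the untreated array, and Cd3e at 5.22 and 5.54. The part of these markers in the subunits' changes was not tested. Ms4a1, Lyz2, C1qa, Mrc1, Col1a1, Fn1, Lox, Acta2, Lcn2, S100a8, Mpo, Cd5 and Cd3e were chosen after their values were seen.

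Under the deposited scaling and with all lymphomas included, the spread between lymphomas differed between cap and core. The SD over lymphomas was smaller on the ADR arrays than on the untreated arrays for 17 of 20 cap subunits (85%), for 6 of 14 core subunits (42.9%) and for 48.7% of all genes tested. The median SD of the cap was 0.17 on the ADR arrays and 0.25 on the untreated arrays, and that of the core was 0.21 on the ADR arrays and 0.19 on the untreated arrays. The ATPase Psmc3, chosen after its values were seen, had signals of 9.57, 9.57, 9.58, 9.57 and 9.73 on the ADR arrays and 9.69, 10.06, 9.80, 9.50 and 9.13 on the untreated arrays. The ADR arrays lay almost at one level, and the untreated ones fell on either side of it. The lid subunit Psmd7, also chosen so, had signals of 9.23, 9.52, 9.46, 9.39 and 9.21 on the ADR arrays and 9.12, 9.59, 9.61, 8.56 and 9.35 on the untreated arrays, where lymphoma_1032 was lowest. Without lymphoma_4936 the cap count was 11 of 20, against 43% of all genes, and without each of the others it was 13 to 18 of 20. With every array centred on its own median it was 13 of 20, against 49.6% of all genes. It was 15 with the mean of all probe sets, against 45.9%, and 17 with quantile normalization, against 51.9%. Core counts under these settings are not given. The subunits share the same arrays, so their counts are not independent observations. The difference in spread was not tested.

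Psmc3ip, the recombination cofactor that the symbol rule also took, had signals of 6.14, 6.44, 6.49, 6.78 and 6.63 on the ADR arrays and 6.89, 7.24, 6.88, 6.84 and 5.94 on the untreated arrays. It was lower with ADR in 4 lymphomas and higher in lymphoma_4936, and the groups overlapped. Its mean change was -0.26 (SE 0.22, 95% interval -0.78 to 0.26, limma adjusted p = 0.729), a wider interval than that of any subunit.

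The genes around the particle were read from lists of its partners, and 0 of them passed the test, against 0% of all genes tested. Those with an unadjusted p under 0.05 were Psmb10, Nfe2l2 and Nfyb, where 8.48% of all genes tested had such a p. They were 1 of 3 immunoproteasome subunits and 2 of 9 regulators. The other lists had 0 of 6 core assembly genes, 0 of 3 activators, 0 of 9 cap-associated genes and 0 of 11 ubiquitin conjugation genes. Over all genes tested 44.8% had a mean change above 0, with a median of -0.02, to be read beside the counts below. The immunoproteasome subunits had mean changes above 0 in 2 of 3, with a median of 0.05. Psmb10, which replaces Psmb7 there, was at 9.06 ± 0.18 on the ADR arrays and 8.75 ± 0.36 on the untreated arrays (SD, n = 5 each), and its changes were 0.47, -0.10, 0.40, 0.37 and 0.41. Its mean change was 0.31 (limma adjusted p = 0.575). Psmb9 had a mean change of -0.19 ± 0.33 and Psmb8 one of 0.05 ± 0.18. Of 6 core assembly chaperones and inhibitors 3 were above 0, with a median of 0.03, and of 3 activators of the core 2 were above 0, with a median of 0.04. Among 9 genes associated with the cap 3 were above 0, with a median of -0.05.

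Of 11 ubiquitin conjugation genes 5 had a mean change above 0, with a median of -0.01, against 44.8% and -0.02 over all genes tested. Ube2n, a conjugating enzyme of DNA damage signalling, was lower with ADR in 5 of 5 lymphomas, at 9.31 ± 0.23 on the ADR arrays and 9.46 ± 0.20 on the untreated arrays (limma adjusted p = 0.669). Ube2c, the conjugating enzyme of the anaphase-promoting complex, had changes of -1.41, -0.52, -0.84, -0.53 and 0.72. Of 9 regulators of proteasome genes 3 were above 0, with a median of -0.08, beside the same values over all genes. Nfe2l2 was at 10.11 ± 0.50 on the ADR arrays and 9.59 ± 0.53 on the untreated arrays, with changes of 1.03, 0.56, 0.73, 0.55 and -0.26 (limma adjusted p = 0.565). Nfyb, a subunit of NF-Y, was at 7.65 ± 0.30 on the ADR arrays and 8.28 ± 0.39 on the untreated arrays, with changes of -0.94, -0.55, -0.89, -0.93 and 0.16 (limma adjusted p = 0.565). For both, lymphoma_4936 had the opposite sign. Nfe2l1 had a mean change of -0.20 ± 0.36. Vcp, on the same list, the segregase that pulls ubiquitinated proteins out of complexes, was higher with ADR in 5 of 5 lymphomas, at 11.35 ± 0.14 on the ADR arrays and 11.17 ± 0.18 on the untreated arrays (limma adjusted p = 0.618). Psmb10, Vcp, Ube2n, Ube2c, Nfe2l2 and Nfyb were chosen after their values were seen.

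**Figure D4:**
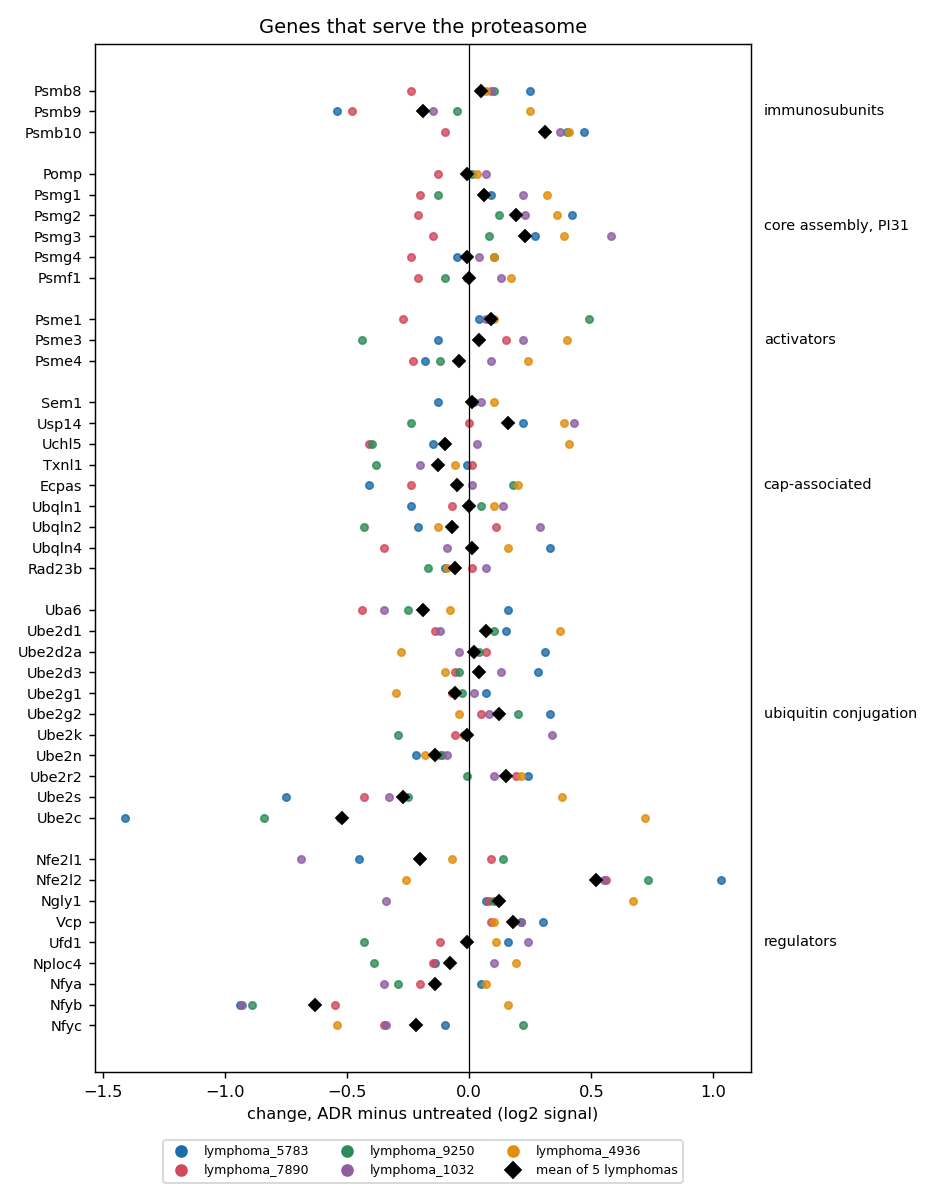
Log2 change, ADR minus untreated, in each lymphoma of the genes around the particle, grouped as immunoproteasome subunits, core assembly factors, activators, cap-associated genes, ubiquitin conjugation genes and regulators. Nfe2l2 lies above 0 and Nfyb below 0 in 4 of 5 lymphomas, with lymphoma_4936 on the other side for both.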

How the data were processed

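Total RNA of 5 lymphomas was measured on 10 arrays, 5 ADR and 5 untreated. The deposited values are log2 signals per probe set. The submitters' processing notes name Partek and RMA as the tools the authors used. Tool versions, settings and the base of the logarithm were not given in the sources used here, and the values were read as log2 from their range. No further normalization was applied. Such probe intensities compress large changes, and a probe set's level was not set against another's.

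Of 45101 probe sets, 64 were controls, 34945 had 1 gene symbol in the platform annotation and 932 had several. They covered 18193 genes, each read from its probe set with the highest mean. The 11472 genes above the table median of 4.43 on at least 5 of 10 arrays entered a paired fit (lmFit and eBayes of limma 3.58.1, R 4.3.3) with lymphoma as a block. P-values are two-sided, Benjamini-Hochberg adjusted over all genes tested, with a threshold of 0.05. Counts and medians were computed with pandas 2.3.3. Arrays of 1 number come from 1 lymphoma per the labels, and deviations from group means correlated within pairs at 0.51 to 0.79. On simulated data the fit called 18% of genes with a log2 change of 0.5, 72% of those with 1 and 0.106% of unchanged genes. The simulated noise was independent for each gene, and changes of 2 and 3 were planted too. Real genes share arrays, so these shares check the fit and do not give its power on these arrays.

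Values on every array were given for the catalytic subunits, Psmd4, Psmd14, the members with the highest and lowest mean change of each family, and members with 1 sign in all lymphomas. Members and lists were chosen with earlier results of these data known. Promoters are RefSeq entries of GRCm38.p6. Alternatives were other probe set rules, filters, scalings, array weights, no block and leaving out lymphomas.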

Additional observations from a re-analysis of the deposited data

Results flagged for a closer look

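In 44 groups of 5 values that belong to the named genes, 4 held a value whose gap to its neighbour was a larger share of the whole range than Dixon's critical value allows, where chance gives about 1 in 20. The ADR signal of Psma6 in lymphoma_1032 was 11.79, against 11.30 to 11.38 in the other ADR arrays. The ADR signal of Psmc2 in lymphoma_4936 was 10.75, against 10.45 to 10.50. The untreated signal of Psmb7 in lymphoma_4936 was 10.44, against 10.62 to 10.69. The change of Psmc6 was 0.19 in lymphoma_4936 and -0.29 to -0.23 in the other lymphomas. The causes were not tested.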

How the results depend on the processing

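Of 16 alternative settings, 14 of them planned, 15 give a count of genes called, which was 0 in all 15, and the smallest adjusted p was 0.153 for any gene and 0.403 for a subunit. Genes at an unadjusted p under 0.05 numbered 262 without the replicate block and 1446 without lymphoma_4936, against 973. Without the replicate block the core median stayed at 0.01, the cap median at 0.02, and 7 core and 7 cap subunits were below 0. The median change lay between -0.05 and 0.09 in the core and between -0.03 and 0.10 in the cap. Of 195 alternative values of named genes 10 changed sign, in 6 genes: Psma5 was -0.01 with the mean of all probe sets, Psmb7 was 0.03 and Psma6 was 0.01 with array centring, Psmb6 was -0.05 and Psmd14 was -0.01 with array weights, and Psmc2 was -0.05 without lymphoma_5783 and lymphoma_1032, a setting added after seeing the data. Array centring left 0 core and 2 cap subunits below 0, array weights 13 cap subunits, and the added setting 11. Leaving out 1 lymphoma gave 4 to 8 core and 4 to 13 cap subunits below 0, and mean changes of -0.15 to 0.07 for Psmb7, -0.05 to 0.09 for Psmd14 and -0.09 to 0.10 for Psmb6. The number of cap subunits with a smaller spread in ADR, counted under alternatives added after seeing the data, was 11 to 18 when 1 lymphoma was left out. The causes were not tested. With 5 arrays per group and no probe-level values used, precision is limited, and Psmb11, under the filter, was not tested.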

Other observations

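Other probe sets of the same genes were compared with the chosen ones. Of the subunits, 17 had further probe sets above the filter, 28 in all, and 8 of these had a mean change of the other sign, in Psma3, Psmd7, Psmd11 and Psmd13. The chosen probe sets of Psma6, Psmc2 and Psmd11 are of kinds that can take up related transcripts. For Psmd6 the other probe set had a mean change of 0.15, beside 0.23 for the chosen one.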
